A study of Homo sapiens with 29 samples.

Results

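Tumors dosed with the peptide Helicon4 were compared with tumors dosed with Helicon4neg, the negative peptide of the series, at the same labelled dose of 30 mpk and the same time of 48 h. The comparison took every library with these titles, 6 of Helicon4 and 8 of Helicon4neg, which is 14 of the 29 libraries of the series, and every gene that passed a filter on low values, 13373 of the 13492 genes in the deposited table. All libraries are polyA RNA-seq of COLO320DM xenografts, and COLO320DM is an established human colorectal adenocarcinoma line known for extrachromosomal copies of MYC. The remaining 15 libraries, 5 of Helicon4 at 100 mpk and 10 of vehicle at the same time, entered the same statistical fit, and vehicle serves below to place levels and for tests of each peptide against it. The labels give mpk as the dose unit, name no route, number of doses, age or sex of the mice, and give no structure for either peptide. No label says that the libraries of a group came from separate mice, so p-values measure the spread between these libraries.

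The series title names the pair of β-catenin and TCF as the target of the helicon peptide. In the canonical Wnt pathway, β-catenin that escapes the destruction complex of AXIN, APC and GSK3 enters the nucleus and binds TCF/LEF factors, which sit on DNA and turn on target genes. Many of those targets are inhibitors of the pathway itself and form a negative feedback loop. In colorectal cancers with mutated APC the complex is inactive and β-catenin/TCF transcription runs without a Wnt signal.

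Values are CPM on the authors' scaling. A fold change is the difference of mean log2(CPM + 1) between the groups with its standard error, positive where Helicon4 was higher, and it understates changes of genes near or below 1 CPM. "Rose" and "fell" mark genes with a limma p under 0.05 after Benjamini-Hochberg adjustment over all 13373 genes. The 14 libraries held 40.8 to 48.6 M recovered reads for Helicon4 and 27 to 59.4 M for Helicon4neg. In a principal component analysis of the 14 libraries, the first component (57.2% of variance) set Helicon4neg library 2 apart, at -86.9 against -12.0 to 26 for the other 13. That library also had the lowest depth (27 M reads) and the largest share of ribosomal protein transcripts (19.1%, against 10.2 to 12.3% in the other 13). The second component (23.8%) separated the 6 Helicon4 libraries, at -25.2 to -11.6, from the 8 Helicon4neg libraries, at -2.35 to 20.7. Titles carry a code of unstated meaning, and SH7081 is the only code with libraries of both groups: Helicon4 library 1 and Helicon4neg libraries 6 to 8. Outside SH7081, title code and peptide cannot be told apart. For many lists, counts or medians are therefore also given without Helicon4neg library 2 or with title code blocked.

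Between Helicon4 and Helicon4neg tumors 2018 genes differed past the threshold, 15.1% of those tested. Of these, 1041 rose (7.78% of tested genes) and 977 fell (7.31%). Counts of list members below are to be read against these shares. Changes were mostly small, with a median of 0.45 on the log2 scale among called genes and -0.00 over all tested genes. At least 2-fold changes were fewer and mostly downward, with 59 rises and 130 falls, and at least 4-fold changes comprised 2 rises and 16 falls. Genes that rose had a median of 7.87 CPM over the 14 libraries, and genes that fell had a median of 29.4 CPM, close to the 28.4 CPM of all tested genes. The groups did not overlap for 505 genes that were higher (3.78% of tested genes) and 444 that were lower (3.32%) in every Helicon4 library. With title code blocked, which rests on SH7081 alone, 184 genes passed (1.38%), 85 higher (0.636%) and 99 lower (0.74%), and all 184 were also among the 2018. In this fit the standard error was 2.08 times as large at the median.

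**Figure D1:**
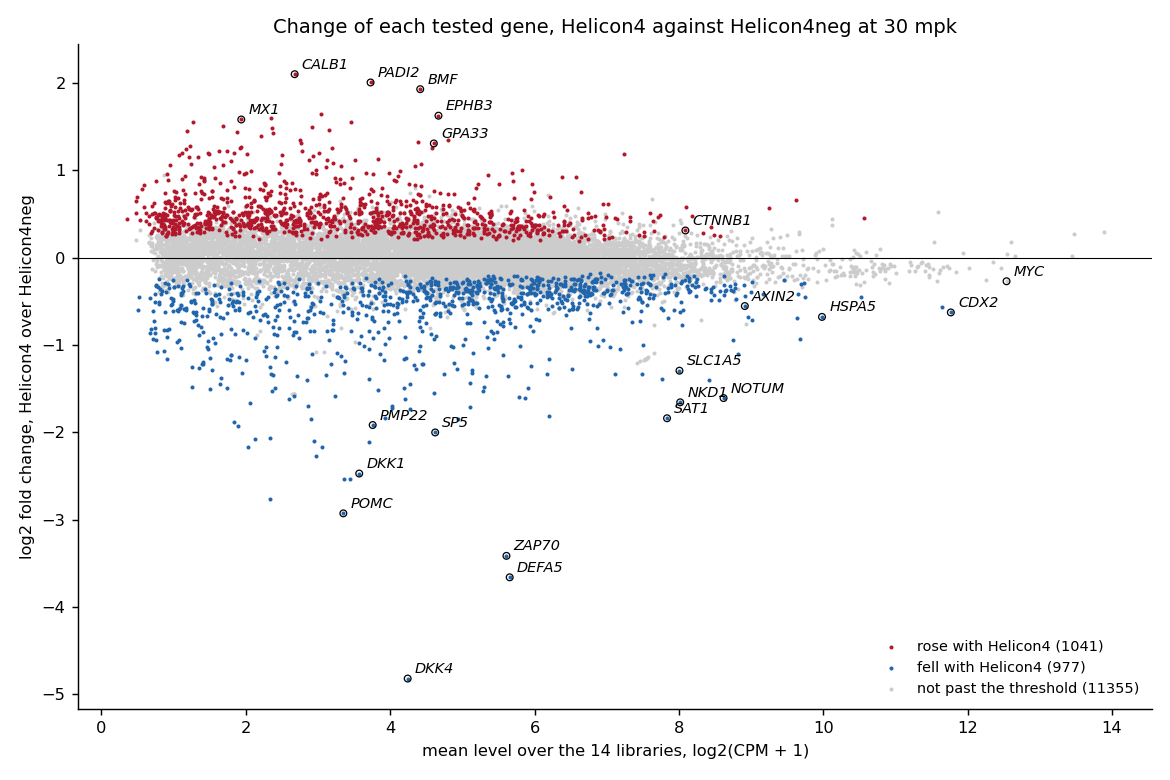
Mean level over the 14 libraries (log2(CPM + 1), horizontal) and log2 fold change of Helicon4 over Helicon4neg (vertical) for the 13373 tested genes, in red where they rose (1041), in blue where they fell (977) and in grey otherwise. The falls reach -4.82 for DKK4, farther from 0 than the largest rise, 2.10 for CALB1, and MYC lies at -0.27.

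The SH7081 libraries allowed a check within 1 title code on libraries that had not made the calls. A fit without the SH7081 libraries of both groups, 5 Helicon4 against 5 Helicon4neg, called 1247 genes, 618 higher and 629 lower. In the unused Helicon4 library of SH7081, 1242 of these (99.6%) differed in the same direction from the mean of the 3 unused Helicon4neg libraries, against 82.3% of all tested genes. The median difference there was 0.55 for the 618 genes and -0.55 for the 629 genes, close to the 0.55 and -0.61 of the fit that chose them. This fit was added after the data had been seen, and a single Helicon4 library in SH7081 gives that side no spread of its own.

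**Figure D2:**
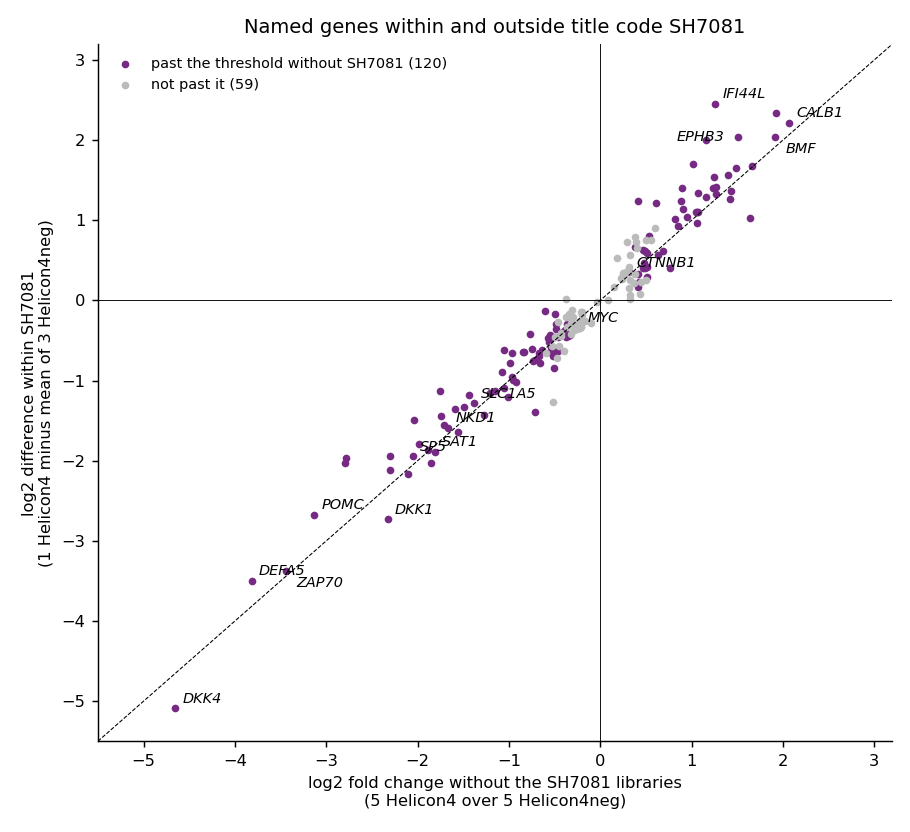
Each point is a named gene, with its log2 fold change in 5 Helicon4 against 5 Helicon4neg libraries without SH7081 (horizontal) and the difference between the single Helicon4 library and the mean of 3 Helicon4neg libraries within SH7081 (vertical). Points lie near the dashed line of equality from DKK4 at the lower left to CALB1 at the upper right, and IFI44L lies above it.

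Most feedback inhibitors of the Wnt pathway were lower with Helicon4. Of 14 tested, 10 fell and 1 rose, and their median was -0.89 against -0.00 for all genes. The largest fall in the table was that of DKK4, a secreted inhibitor that blocks the LRP5/6 co-receptors. DKK4 had 0.0236 to 0.201 CPM (median 0.0861) in Helicon4 tumors and 13.0 to 43.1 CPM (median 31.9) in Helicon4neg tumors, which corresponds to 27 reads in all 6 Helicon4 libraries together and 12344 reads in the 8 Helicon4neg libraries. The change was -4.82 ± 0.23, adjusted p = 9.66e-16, and the vehicle level of 32.5 ± 13.7 CPM (SD, n = 10) was that of Helicon4neg. DKK1, its paralog, had 1.73 to 2.91 CPM (median 2.27) in Helicon4 tumors and 8.88 to 24.2 CPM (median 17.4) in Helicon4neg tumors, a change of -2.47 ± 0.17, adjusted p = 6.48e-12. No Helicon4 library reached the lowest Helicon4neg library for either gene.

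Intracellular and enzymatic inhibitors, at higher levels in Helicon4neg tumors than DKK4 and DKK1, fell by smaller folds. NKD1, which binds Dishevelled, had 103 to 142 CPM (median 108) in Helicon4 tumors and 281 to 492 CPM (median 362) in Helicon4neg tumors (-1.66 ± 0.12, adjusted p = 1.47e-11). NOTUM, an extracellular esterase that removes the lipid from Wnt ligands, had 129.5 to 217 CPM (median 185) in Helicon4 tumors and 405 to 679.9 CPM (median 556) in Helicon4neg tumors (-1.61 ± 0.14, adjusted p = 9.52e-10). For both genes every Helicon4 library was below every Helicon4neg library. NOTUM was also higher in Helicon4neg than in vehicle, at 387 ± 73.3 CPM (SD, n = 10), with a log2 difference of 0.52 and an adjusted p of 0.0145 in limma. AXIN2, the scaffold of the destruction complex and a widely used reporter of β-catenin activity, had 329 to 419.5 CPM (median 386) in Helicon4 tumors and 425 to 646 CPM (median 572) in Helicon4neg tumors, a smaller change of -0.55 ± 0.09, adjusted p = 7.2e-05 that still left the groups apart.

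APCDD1, a membrane inhibitor of Wnt receptors, had 495 to 679 CPM (median 509) in Helicon4 tumors and 839 to 1175 CPM (median 1002) in Helicon4neg tumors (-0.93 ± 0.09, adjusted p = 1.46e-08), again with separate groups. NKD2, a second Dishevelled binder, changed by -0.95 ± 0.15, adjusted p = 4.43e-05, and SFRP5, a secreted frizzled-related protein at low level, by -1.16 ± 0.16, adjusted p = 1.84e-06. WIF1, a secreted Wnt-binding protein, changed by -0.84 ± 0.19, adjusted p = 0.00276, although Helicon4neg library 2, at 22.1 CPM, was below every Helicon4 library. Of the paired ubiquitin ligases that clear Frizzled receptors, ZNRF3 fell (-0.52 ± 0.14, adjusted p = 0.00968) and RNF43 did not pass, at -0.05, adjusted p = 0.8 and a 95% interval of -0.25 to 0.16. KREMEN1, a receptor for DKK proteins, did not pass either (-0.39, adjusted p = 0.0618). KREMEN1 passed without Helicon4 library 4 or Helicon4neg library 2 (-0.51 to -0.45, adjusted p = 0.00252 to 0.0393). RNF43 changed sign without Helicon4neg library 4 (0.01, adjusted p = 0.977). DKK2 was the exception that rose, at a low level of 0.956 to 1.44 CPM in Helicon4 tumors and 0.327 to 0.742 CPM in Helicon4neg tumors (0.50 ± 0.10, adjusted p = 0.0006). Helicon4neg against vehicle called 1 of the 14 list members, NOTUM, while that comparison called 4.84% of all tested genes. With title code blocked, 5 of the 14 fell and none rose, at a median of -0.98, and AXIN2 was among those that did not pass (-0.64, adjusted p = 0.164 in limma).

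**Figure D3:**
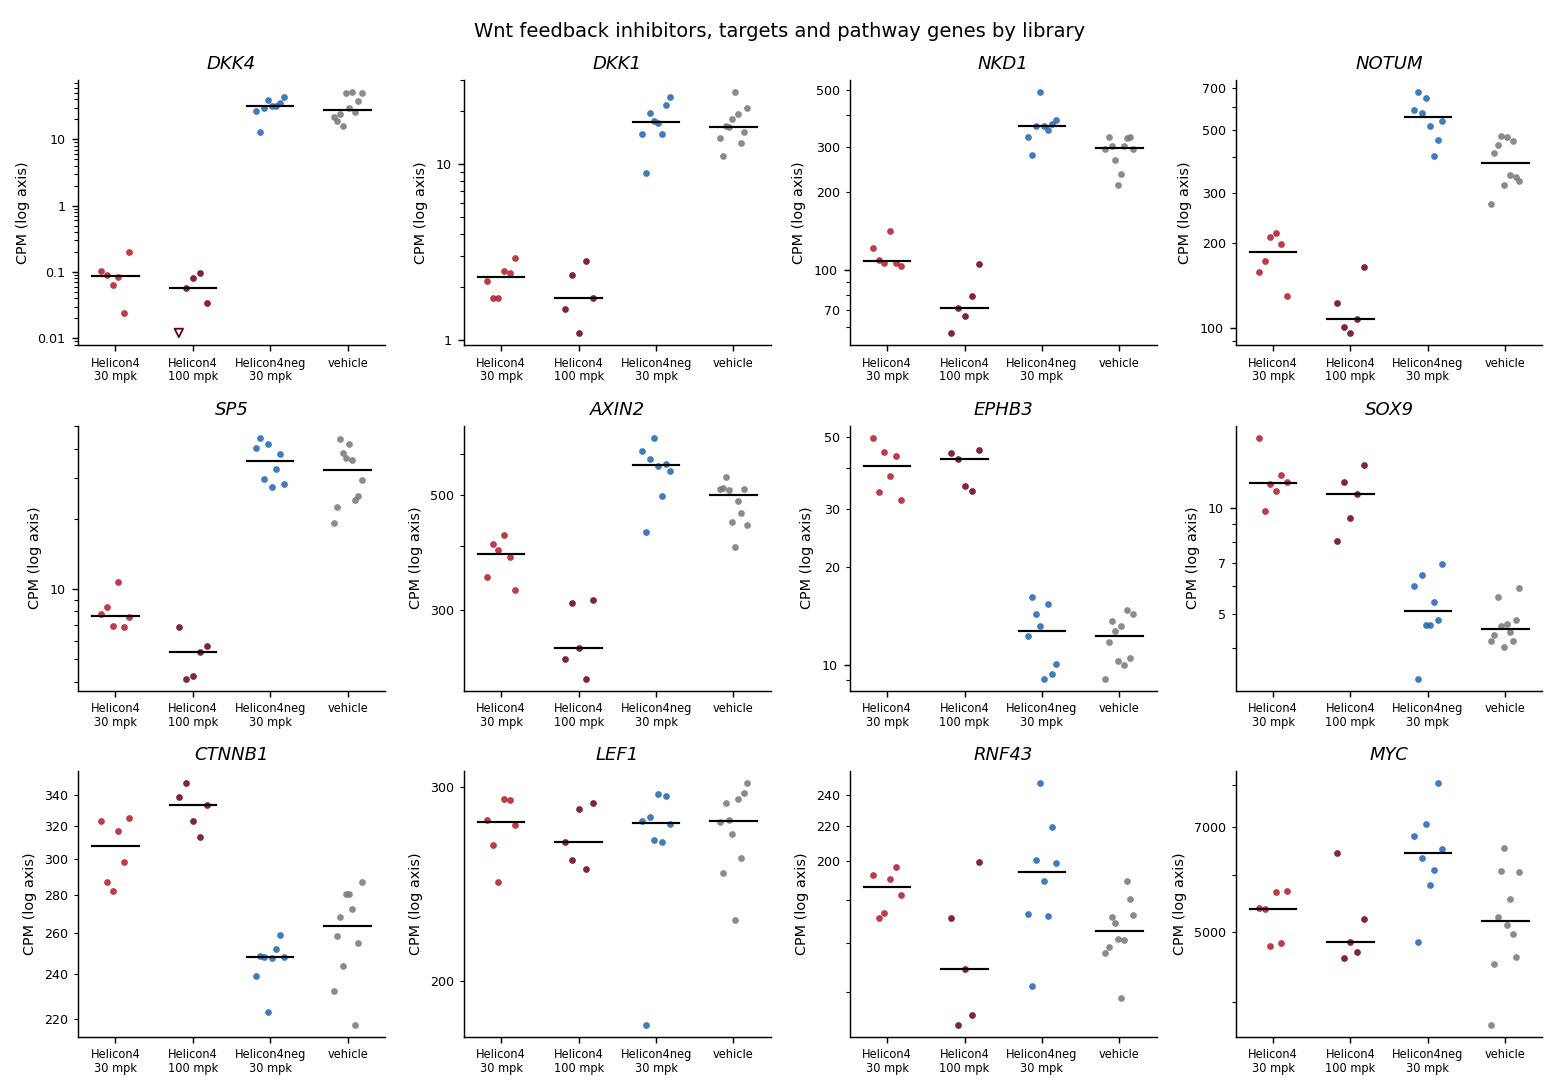
CPM of 12 Wnt pathway genes in each library (points, log axis) by group, with the median of each group as a bar, and an open triangle for a library listed at 0. DKK4, DKK1, NKD1, NOTUM, SP5 and AXIN2 are lower, and EPHB3, SOX9 and CTNNB1 higher, in every Helicon4 30 mpk library than in every Helicon4neg library, while LEF1, RNF43 and MYC overlap.

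Other genes described as Wnt targets moved in both directions. Of 31 tested transcription factors and other targets, 9 fell and 3 rose, with a median of -0.18, or -0.28 without Helicon4neg library 2. SP5, a zinc-finger factor that represses other Wnt targets, had 6.86 to 10.7 CPM (median 7.68) in Helicon4 tumors and 27.4 to 44.7 CPM (median 35.4) in Helicon4neg tumors (-2.0 ± 0.16, adjusted p = 1.35e-10). FGF20, a fibroblast growth factor and Wnt target, was low, at 0.215 to 0.520 CPM with Helicon4, against 2.01 to 5.74 CPM with Helicon4neg (-1.92 ± 0.13, adjusted p = 4.86e-12). EPHB3, a receptor that positions cells along the crypt and a textbook Wnt target, rose instead. It had 32 to 49.7 CPM (median 40.8) in Helicon4 tumors and 9.11 to 16.2 CPM (median 12.7) in Helicon4neg tumors, a change of 1.63 ± 0.13, adjusted p = 1.16e-10, with no overlap. SOX9, a factor of crypt base and Paneth cells, likewise rose (1.08 ± 0.12, adjusted p = 9.3e-08), at 9.81 to 15.9 CPM with Helicon4 against 3.27 to 6.93 CPM with Helicon4neg. SOX4, a related factor, rose by less (0.42 ± 0.13, adjusted p = 0.0254). SOX4 did not pass without Helicon4 library 1, 4 or 6 (0.38 to 0.41, adjusted p = 0.0519 to 0.0697).

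Several genes often used as readouts of this pathway did not pass. MYC, the amplified oncogene of this line, had 4792 to 5696 CPM (median 5394) in Helicon4 tumors and 4845 to 8037 CPM (median 6432) in Helicon4neg tumors, with a change of -0.27, adjusted p = 0.116 and a 95% interval of -0.50 to -0.04. Vehicle stood at 5244 ± 845 CPM for MYC (SD, n = 10), and the groups overlapped. MYC passed without Helicon4neg library 2 (-0.33, adjusted p = 0.0316). CCND1, which encodes cyclin D1, differed by -0.23, adjusted p = 0.441, with an interval of -0.61 to 0.14. LGR5, the stem cell receptor for R-spondin, was near 1 CPM in both groups and differed by -0.23, adjusted p = 0.393. ASCL2, a stem cell factor, fell by the test (-0.59 ± 0.20, adjusted p = 0.0473) with overlapping groups, and Helicon4neg library 2, at 138 CPM, stood above the others at 35.7 to 59.6 CPM. ASCL2 did not pass without each of 12 single libraries (-0.63 to -0.39, adjusted p = 0.0508 to 0.109). Among stem cell markers as a list, 5 of 20 fell (25%) and 4 rose (20%). EPHB3 is a member of this list, of the Wnt target list and of the Eph list, so its rise counts in each. TNFRSF19, a Wnt-regulated receptor, fell (-1.01 ± 0.17, adjusted p = 7.54e-05) and LRIG1, a brake on growth factor receptors, rose (0.38 ± 0.10, adjusted p = 0.00867).

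The machinery that carries the signal held calls in both directions. Of 37 tested members of the destruction and transcription complexes, 4 rose and 4 fell (21.6%, against 15.1% of all tested genes), with a median of 0.07, and without Helicon4 library 1 none fell and 3 rose. CTNNB1, which encodes β-catenin, was slightly higher, at 282 to 325 CPM (median 308) in Helicon4 tumors and 223 to 259 CPM (median 248) in Helicon4neg tumors (0.31 ± 0.06, adjusted p = 0.000709), without overlap between the groups. The co-repressors CTBP2 (0.44 ± 0.10, adjusted p = 0.00289), TLE2 (0.52 ± 0.12, adjusted p = 0.00356) and TLE4 (0.55 ± 0.17, adjusted p = 0.025) also rose. The DNA-binding partners did not pass: LEF1 differed by 0.05, adjusted p = 0.76 (95% interval -0.13 to 0.22), TCF7L2 by 0.20, adjusted p = 0.285 (interval -0.04 to 0.45) and TCF7 by -0.15, adjusted p = 0.476 (interval -0.40 to 0.11). LEF1 changed sign without Helicon4neg library 2 (-0.03, adjusted p = 0.823). TLE4 did not pass without Helicon4 library 1 or 6 (0.48 to 0.51, adjusted p = 0.0647 to 0.0776). Of 28 ligands, receptors and secretion factors, 4 fell (14.3%, against 7.31% of all tested genes) and 2 rose (7.14%, against 7.78%). Leaving out Helicon4 library 1 left 4 falls and no rise. FZD10, a Frizzled receptor, fell most, at 20.5 to 33.4 CPM with Helicon4 against 51.4 to 98.8 CPM with Helicon4neg (-1.61 ± 0.18, adjusted p = 5.7e-08). WNT6 fell at a very low level (-0.90 ± 0.11, adjusted p = 1.89e-07), and WNT5A, a ligand of non-canonical signalling, rose (0.51 ± 0.16, adjusted p = 0.0235). WNT5A did not pass without Helicon4 library 1 (0.48, adjusted p = 0.0601). With title code blocked, no member of the complexes passed, 1 ligand or receptor fell and none rose, 3 of the other Wnt targets fell and 2 rose, and 2 stem cell markers rose.

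The TCF/LEF consensus was looked for in promoters, taken as the 250 bases before each gene start in RefSeq (GRCh38.p14). CTTTGAT, searched on both strands, was found for 13 of 725 genes that fell (1.79%), for 18 of 806 that rose (2.23%) and for 210 of 10555 tested genes with a promoter entry (1.99%). Among genes that fell at least 2-fold it was found for 4 of 87 (4.60%), and among genes that rose at least 2-fold for 1 of 46 (2.17%). GAAANNGAAA, the interferon element searched for below, had the same share among these falls, 4 of 87, and 6 of 46 (13.0%) among these rises. Among Wnt feedback inhibitors CTTTGAT was found for 0 of 6. A match describes letters only. The promoters of the genes with the largest changes that hold a match are printed 5′ to 3′ on the strand of the gene, with the match in capitals, which reads ATCAAAG where it lies on the other strand. They show SP5, ZAP70 and SERPIND1, which fell, and AMBN, which rose.
SP5 (chr2:170715087-170715336, plus strand): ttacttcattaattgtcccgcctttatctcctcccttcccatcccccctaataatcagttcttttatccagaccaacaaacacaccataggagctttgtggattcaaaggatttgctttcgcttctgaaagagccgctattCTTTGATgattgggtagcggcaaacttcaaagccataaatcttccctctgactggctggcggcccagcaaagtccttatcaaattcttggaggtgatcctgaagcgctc
ZAP70 (chr2:97713326-97713575, plus strand, 1 of 3 promoters in the table): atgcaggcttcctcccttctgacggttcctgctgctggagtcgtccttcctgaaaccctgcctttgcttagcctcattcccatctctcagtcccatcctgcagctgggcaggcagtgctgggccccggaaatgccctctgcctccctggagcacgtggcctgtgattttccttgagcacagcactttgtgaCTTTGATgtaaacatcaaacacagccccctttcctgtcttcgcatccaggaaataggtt
SERPIND1 (chr22:20773863-20774112, plus strand): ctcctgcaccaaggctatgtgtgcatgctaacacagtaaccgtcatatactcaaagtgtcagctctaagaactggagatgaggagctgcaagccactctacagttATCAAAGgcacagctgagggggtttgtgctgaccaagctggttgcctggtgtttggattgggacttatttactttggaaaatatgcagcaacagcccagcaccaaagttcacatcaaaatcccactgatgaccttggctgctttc
AMBN (chr4:70592006-70592255, plus strand): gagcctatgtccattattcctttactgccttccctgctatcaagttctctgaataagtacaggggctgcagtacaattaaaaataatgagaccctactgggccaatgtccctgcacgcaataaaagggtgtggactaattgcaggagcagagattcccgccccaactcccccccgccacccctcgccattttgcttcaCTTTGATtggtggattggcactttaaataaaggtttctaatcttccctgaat

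Outside the Wnt lists, the genes with the clearest separation between the groups fell. ZAP70, a kinase best known from T-cell receptor signalling, had 5.38 to 7.59 CPM (median 6.18) in Helicon4 tumors and 62.3 to 112 CPM (median 76.6) in Helicon4neg tumors (-3.42 ± 0.13, adjusted p = 3.06e-18). Vehicle stood at 59.5 ± 8.61 CPM (SD, n = 10), and Helicon4neg exceeded it by 0.40 (adjusted p = 0.0347 in limma). PMP22, a membrane protein of myelin, had 3.64 to 5.09 CPM (median 4.14) in Helicon4 tumors and 16.2 to 24.4 CPM (median 18.3) in Helicon4neg tumors (-1.92 ± 0.09, adjusted p = 9.66e-16). SERPIND1, the thrombin inhibitor heparin cofactor II, had 1.45 to 2.31 CPM (median 1.55) in Helicon4 tumors and 9.19 to 12.5 CPM (median 10.2) in Helicon4neg tumors (-2.10 ± 0.12, adjusted p = 1.75e-13). Together with DKK4 and the ZNF385C row with ID ENSG00000187595 (-1.45 ± 0.09, adjusted p = 1.39e-12), these 3 genes had the largest gap between groups relative to their spread. A second row of that symbol is not meant here. In each, the lowest Helicon4neg library was well above the highest Helicon4 library.

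The other large falls came from varied functions. DEFA5, an antimicrobial defensin of Paneth cells, had 3.60 to 8.06 CPM (median 4.88) in Helicon4 tumors and 42.0 to 163 CPM (median 76.0) in Helicon4neg tumors (-3.66 ± 0.26, adjusted p = 6.48e-12). CEBPD, a C/EBP factor, changed by -2.16 ± 0.19, adjusted p = 1.24e-09. Of 5 C/EBP factors 3 fell and none rose, with a median of -0.59, or -0.41 without Helicon4neg library 2, and 1 fell with title code blocked. NTNG2, a netrin relative at the cell membrane, changed by -1.85 ± 0.17, adjusted p = 3.17e-09. SAT1, which breaks down polyamines, had 82.0 to 102 CPM (median 90.3) in Helicon4 tumors and 247 to 395 CPM (median 331) in Helicon4neg tumors (-1.84 ± 0.13, adjusted p = 4.99e-12). Vehicle lay between the peptides for SAT1, at 187 ± 37.0 CPM (SD, n = 10), and Helicon4neg was itself above vehicle by 0.82 (adjusted p = 6.26e-05 in limma).

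The largest rises among genes with at least 5 CPM were CALB1, PADI2 and BMF. CALB1, a calcium-binding protein of neurons and epithelia, had 7.56 to 12.2 CPM (median 10.6) in Helicon4 tumors and 1.36 to 2.23 CPM (median 1.48) in Helicon4neg tumors (2.10 ± 0.17, adjusted p = 1.42e-10). PADI2, which converts protein arginine to citrulline, had 17.2 to 27.1 CPM (median 21.8) in Helicon4 tumors and 3.90 to 5.74 CPM (median 4.73) in Helicon4neg tumors (2.01 ± 0.13, adjusted p = 2.93e-12). BMF, a BH3-only protein that promotes apoptosis, had 28.8 to 43.9 CPM (median 36.9) in Helicon4 tumors and 6.59 to 9.58 CPM (median 8.96) in Helicon4neg tumors (1.93 ± 0.11, adjusted p = 3.43e-14), and vehicle was at 9.31 ± 1.38 CPM (SD, n = 10). The groups were apart in all 3. KNG1, the kininogen precursor, rose (1.64 ± 0.18, adjusted p = 7.5e-08), as did CEL, a bile salt-dependent lipase (1.55 ± 0.20, adjusted p = 9.26e-07), and AMBN, an enamel matrix protein (1.25 ± 0.13, adjusted p = 3.22e-08). NXPH4, a neurexophilin (1.35 ± 0.13, adjusted p = 5.17e-09), and GPA33, a surface antigen of colon epithelium (1.31 ± 0.09, adjusted p = 1.06e-11), rose as well. The remaining members of the 15 largest rises, by log2 fold change, were TAC3 (1.5), TNMD (1.47), DSPP (1.34), EDIL3 (1.32), MFAP4 (1.31) and CLSTN2 (1.25). DSPP and AMBN were lower in Helicon4neg than in vehicle, with log2 differences of -0.68 and -0.43, with adjusted p of 0.0103 and 0.0268 in limma.

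Intestinal lineage markers did not move as one. Among 6 tested Paneth and secretory markers 2 rose and 2 fell, and among 5 enterocyte markers 3 fell and 1 rose. ATOH1, the master factor of secretory cells, rose (0.59 ± 0.11, adjusted p = 0.000225) while the Paneth product DEFA5 fell. FABP2, an enterocyte fatty acid carrier, had 7.66 to 12.8 CPM (median 10.5) in Helicon4 tumors and 22.5 to 44.3 CPM (median 34.4) in Helicon4neg tumors (-1.55 ± 0.16, adjusted p = 2.32e-08). CDX2, the intestinal identity factor and among the most abundant transcripts here, had 2394 to 3066 CPM (median 2606) in Helicon4 tumors and 3382 to 4783 CPM (median 4226) in Helicon4neg tumors (-0.63 ± 0.12, adjusted p = 0.000543) and was itself higher in Helicon4neg than in vehicle, by 0.40 (adjusted p = 0.0257 in limma). CDX2 is counted in both the enterocyte list and the epithelial identity list. DNA copy number was not measured, so its part in the CDX2 level was not tested. In bulk tumors, fewer cells of a type and less RNA per cell cannot be told apart. Of 10 neuroendocrine and neuronal markers 1 fell, NCAM1 (-0.52 ± 0.10, adjusted p = 0.000366). In the title code fit 1 Paneth or secretory marker rose and 1 fell, and 1 enterocyte marker fell.

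Of 15 genes of amine and peptide signalling 7 fell (46.7%, against 7.31% of all tested genes) and 4 rose (26.7%, against 7.78%). The median was -0.50, or -0.31 without Helicon4neg library 2. Like the other lists, this list was chosen with earlier results of these data known, so its share of calls is a description only. Blocking title code left 3 falls and 1 rise, with a median of -0.32. POMC, the precursor of ACTH and melanocortins, had 0.582 to 1.73 CPM (median 0.938) in Helicon4 tumors and 8.28 to 25 CPM (median 13.7) in Helicon4neg tumors (-2.93 ± 0.29, adjusted p = 9.42e-09). ADRA2C, an adrenergic receptor, had 1.00 to 3.70 CPM (median 1.70) in Helicon4 tumors and 8.82 to 24.5 CPM (median 15.6) in Helicon4neg tumors (-2.53 ± 0.20, adjusted p = 9.32e-11). HDC, which makes histamine, had 215 to 291 CPM (median 279) in Helicon4 tumors and 314 to 755 CPM (median 602) in Helicon4neg tumors (-1.10 ± 0.15, adjusted p = 3.09e-06). MAOA, which degrades amines, had 94.3 to 133 CPM (median 115) in Helicon4 tumors and 178 to 316 CPM (median 215) in Helicon4neg tumors (-1.0 ± 0.12, adjusted p = 2.06e-07), while Helicon4neg exceeded vehicle by 0.41 (adjusted p = 0.0165 in limma). Helicon4 libraries were below all Helicon4neg libraries for these 4 genes. TAC3, the neurokinin B precursor, rose to 7.19 to 16.8 CPM with Helicon4, against 2.08 to 4.96 CPM with Helicon4neg.

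Axon guidance genes rose more often than they fell, 13 against 4 of 37 tested, with a median of 0.15. The shares were 35.1% for rises and 10.8% for falls, against 7.78% and 7.31% of all tested genes. SEMA5A, a transmembrane semaphorin, had 63.1 to 93.9 CPM (median 78.3) in Helicon4 tumors and 25.3 to 48.8 CPM (median 40.5) in Helicon4neg tumors (1.00 ± 0.13, adjusted p = 1.54e-06), while its relative SEMA5B had 1.05 to 2.7 CPM (median 1.13) in Helicon4 tumors and 5.61 to 17.5 CPM (median 11.1) in Helicon4neg tumors (-2.27 ± 0.20, adjusted p = 5.56e-10). PLXNA2, a plexin receptor, fell at a very low level (-1.16 ± 0.11, adjusted p = 6.4e-09). Of 16 Eph receptors and ephrins 4 rose (25%) and 1 fell (6.25%). Besides EPHB3, EPHA4 (0.61 ± 0.14, adjusted p = 0.00319) and EFNB3 (0.39 ± 0.10, adjusted p = 0.00702) rose and EPHA2 fell (-0.53 ± 0.10, adjusted p = 0.000168). With title code blocked, 1 of the 37 guidance genes rose and 3 fell, at a median of 0.21, and 1 Eph or ephrin gene rose.

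Interferon-stimulated genes formed the list with the largest share of rises. Of 41 tested, 30 rose and 1 fell, EPSTI1 (-0.72 ± 0.12, adjusted p = 9.82e-05), and the median was 0.62. These genes are normally induced through interferon receptors. HERC6, an interferon-induced ubiquitin ligase family member, had 14.9 to 25.7 CPM (median 16.8) in Helicon4 tumors and 7.62 to 10.1 CPM (median 8.57) in Helicon4neg tumors (0.95 ± 0.12, adjusted p = 9.05e-07). IFIT1, a sensor of foreign RNA caps, had 12.1 to 23.9 CPM (median 14.5) in Helicon4 tumors and 5.42 to 7.91 CPM (median 6.49) in Helicon4neg tumors (1.12 ± 0.16, adjusted p = 5.81e-06). For IFIT1, Helicon4neg was below vehicle, with a log2 difference of -0.47 (adjusted p = 0.0483 in limma). IFI44L had 0.863 to 5.82 CPM (median 2.17) in Helicon4 tumors and 0.0956 to 0.562 CPM (median 0.181) in Helicon4neg tumors (1.45 ± 0.23, adjusted p = 4.14e-05) and IFIT3 had 3.13 to 9.07 CPM (median 3.97) in Helicon4 tumors and 0.374 to 1.79 CPM (median 1.41) in Helicon4neg tumors (1.25 ± 0.21, adjusted p = 5.87e-05). All 4 were higher in every Helicon4 library than in any Helicon4neg library. MX1, an antiviral GTPase chosen after its values were seen as the largest rise of the list, had 1.67 to 11 CPM (median 4.78) in Helicon4 tumors and 0.445 to 1.42 CPM (median 0.949) in Helicon4neg tumors (1.58 ± 0.27, adjusted p = 9.7e-05).

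The size of the interferon pattern varied between libraries. The mean log2 level of the 41 genes was 3.44 to 4.22 in Helicon4 libraries, with the highest value in library 1, and 3.02 to 3.19 in Helicon4neg libraries. Vehicle lay at 3.18 to 3.68 and Helicon4 at 100 mpk at 3.63 to 4.46. Without Helicon4 library 1, 24 genes rose and 1 fell, and without the SH7081 libraries of both groups 20 rose and 1 fell. With title code blocked the median was 1.05, a value that rests on library 1 as the only Helicon4 library of SH7081. In the fit without a block and without Helicon4 library 1, the median was 0.53. Helicon4neg against vehicle called 3 of the 41, all lower, with a median of -0.18, against 2.62% of all tested genes called lower there. Among 22 genes of MHC class I antigen presentation 1 rose, TAP1 (0.49 ± 0.16, adjusted p = 0.0304), and 1 fell, PDIA3 (-0.38 ± 0.09, adjusted p = 0.00514). TAP1 did not pass without Helicon4 library 1 or 2 or Helicon4neg library 2 (0.38 to 0.43, adjusted p = 0.0502 to 0.103).

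Promoters of these genes were searched for GAAANNGAAA, the core of the interferon-stimulated response element, on both strands and after the values had been seen. It was found for 21 of 34 interferon-stimulated genes with a promoter entry (61.8%), against 352 of 10555 tested genes (3.33%), 47 of 806 that rose (5.83%) and 21 of 725 that fell (2.90%). The element is a textbook feature of these genes. The promoters of the 3 largest rises with a match are printed as above, also where it lies on the other strand.
MX1 (chr21:41431800-41432049, plus strand, 1 of 3 promoters in the table): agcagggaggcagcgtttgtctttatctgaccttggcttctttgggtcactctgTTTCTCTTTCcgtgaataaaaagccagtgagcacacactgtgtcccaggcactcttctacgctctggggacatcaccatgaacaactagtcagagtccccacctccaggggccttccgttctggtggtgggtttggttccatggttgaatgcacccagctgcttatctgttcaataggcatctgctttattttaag
IFI44L (chr1:78620198-78620447, plus strand): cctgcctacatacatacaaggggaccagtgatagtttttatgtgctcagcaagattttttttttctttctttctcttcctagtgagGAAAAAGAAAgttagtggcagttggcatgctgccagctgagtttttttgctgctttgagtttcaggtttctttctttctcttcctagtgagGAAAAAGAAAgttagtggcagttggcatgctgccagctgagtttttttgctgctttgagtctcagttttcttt
IFIT3 (chr10:89327747-89327996, plus strand, both of its promoters in the table hold a match): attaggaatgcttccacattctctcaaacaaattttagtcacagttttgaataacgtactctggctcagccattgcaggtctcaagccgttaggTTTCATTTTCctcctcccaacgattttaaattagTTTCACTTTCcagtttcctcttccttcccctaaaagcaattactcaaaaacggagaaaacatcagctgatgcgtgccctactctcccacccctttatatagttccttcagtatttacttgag
IFI44L and IFIT3 hold 2 matches each and MX1 holds 1.

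Many members of the AP-1 and immediate early list, whose genes respond to growth factor and stress signals, were lower. The list also holds ETV4, ETV5, SPRY2, SPRY4 and DUSP6, so its counts are not those of AP-1 subunits alone. Of 32 tested, 17 fell and none rose, with a median of -0.59. The 4 members with the smallest adjusted p lie downstream of FGF and ERK signalling. ETV4, an ETS factor, had 8.71 to 14.6 CPM (median 10.8) in Helicon4 tumors and 24.4 to 68.0 CPM (median 44.6) in Helicon4neg tumors (-1.85 ± 0.18, adjusted p = 4.57e-09), and its relative ETV5 had 228 to 316 CPM (median 289.7) in Helicon4 tumors and 460.0 to 645 CPM (median 529.5) in Helicon4neg tumors (-0.95 ± 0.12, adjusted p = 1.22e-06). SPRY4 and SPRY2, which dampen receptor tyrosine kinase signalling, had 2.29 to 4.10 CPM and 3.76 to 5.14 CPM with Helicon4, against 9.11 to 16.0 CPM and 6.73 to 17.1 CPM with Helicon4neg (-1.59 ± 0.18, adjusted p = 1.01e-07 for SPRY4 and -1.32 ± 0.15, adjusted p = 1.75e-07 for SPRY2). None of these 4 differed between Helicon4neg and vehicle past the threshold. DUSP6, an ERK phosphatase, fell as well (-0.58 ± 0.17, adjusted p = 0.0194). DUSP6 did not pass without Helicon4 library 2 (-0.45, adjusted p = 0.0737).

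FOS and JUN, which encode subunits of AP-1, were higher in Helicon4neg than in vehicle by the test, with overlapping libraries. FOS had 2.96 to 6.67 CPM (median 5.10) in Helicon4 tumors and 2.81 to 45.6 CPM (median 22.8) in Helicon4neg tumors (-1.73 ± 0.40, adjusted p = 0.00289), with vehicle at 6.24 ± 4.22 CPM (SD, n = 10). Helicon4neg against vehicle gave 1.60 for FOS (adjusted p = 0.00644) and Helicon4 against vehicle gave -0.12 (adjusted p = 0.859), both from limma. JUN had 55.5 to 85.7 CPM (median 64.5) in Helicon4 tumors and 45.4 to 282 CPM (median 206) in Helicon4neg tumors (-1.33 ± 0.29, adjusted p = 0.0014), with vehicle at 92.8 ± 33.7 CPM (SD, n = 10) and 0.92 for Helicon4neg against vehicle (adjusted p = 0.029). The lowest Helicon4neg value of both genes, in library 2, was below every Helicon4 library. FOS, JUN and DUSP6 were chosen after their values were seen, as were those list members elsewhere that lie outside the rule given with the methods. Of the whole list, Helicon4neg against vehicle called 7 higher and none lower, against 2.21% of all tested genes called higher there, and Helicon4 at 30 mpk against vehicle called 7 lower and none higher, against 5.22% of all tested genes called lower and 5.86% called higher. These comparisons share libraries with the main one. Without the SH7081 libraries 9 of the list fell, and with title code blocked 5 fell.

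**Figure D4:**
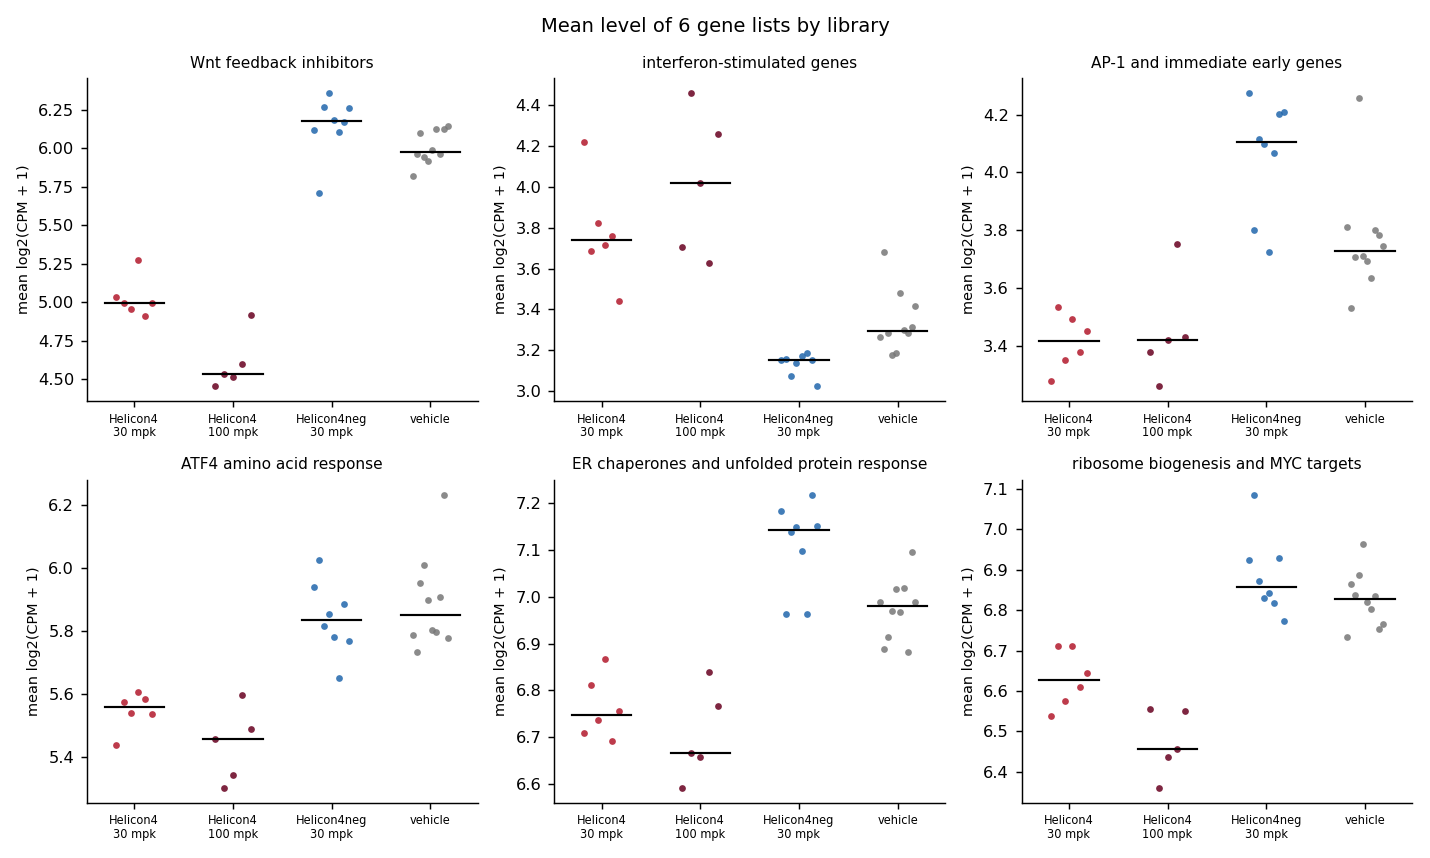
Mean log2(CPM + 1) over the tested members of 6 gene lists in each library (points) by group, with the group median as a bar. Helicon4 30 mpk libraries are below all Helicon4neg libraries for 5 lists and above them for interferon-stimulated genes, and the vehicle median lies between the peptide medians in every panel but ATF4, where it is 5.85 against 5.56 for Helicon4 and 5.83 for Helicon4neg.

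Many stress and amino acid response genes were lower with Helicon4. Of 33 tested ATF4 targets and related genes, 13 fell and none rose, with a median of -0.31, and 4 fell with title code blocked. SLC1A5, a glutamine transporter, had 118 to 164 CPM (median 141) in Helicon4 tumors and 248 to 502 CPM (median 333) in Helicon4neg tumors (-1.29 ± 0.13, adjusted p = 2.25e-08), and SLC3A2, the shared chain of amino acid exchangers, changed by -0.62 ± 0.09, adjusted p = 1.18e-05. ATF3 (-0.92 ± 0.16, adjusted p = 0.000111) and CTH, which makes cysteine (-0.52 ± 0.10, adjusted p = 0.000623), fell too. Of 24 tested ER chaperones and unfolded protein response genes, 11 fell and none rose, with a median of -0.32, and 2 fell with title code blocked. HSPA5, the main ER chaperone, had 697 to 794 CPM (median 760.3) in Helicon4 tumors and 1002 to 1482 CPM (median 1183) in Helicon4neg tumors (-0.68 ± 0.08, adjusted p = 4.21e-07), while Helicon4neg exceeded vehicle by 0.40 (adjusted p = 0.00148). ERN1, the sensor IRE1, had 29.1 to 36.8 CPM (median 30.5) in Helicon4 tumors and 49.1 to 57.8 CPM (median 52.2) in Helicon4neg tumors (-0.73 ± 0.07, adjusted p = 8.7e-09), with 0.24 for Helicon4neg against vehicle (adjusted p = 0.026). HSP90B1 (-0.45 ± 0.08, adjusted p = 0.000194) and PDIA4 (-0.39 ± 0.08, adjusted p = 0.000464) completed the 4 leading members. DDIT3, the stress factor CHOP and a C/EBP relative, changed by -1.03 ± 0.21, adjusted p = 0.000705, and Helicon4neg exceeded vehicle by 0.76 (adjusted p = 0.0133). Cytosolic chaperones did not follow: 1 of 15 rose, HSP90AA1 (0.45 ± 0.11, adjusted p = 0.00365), for which Helicon4neg was below vehicle, with a log2 difference of -0.56 (adjusted p = 0.000674).

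Some ribosome biogenesis genes and other MYC targets were lower, by small amounts. Of 51 tested, 16 fell and none rose, with a median of -0.26. GNL3, which encodes nucleostemin, had 187 to 228 CPM (median 203) in Helicon4 tumors and 237 to 287 CPM (median 258) in Helicon4neg tumors (-0.34 ± 0.07, adjusted p = 0.000459), without overlap. RCL1 (-0.37 ± 0.07, adjusted p = 0.000618), NOLC1 (-0.40 ± 0.09, adjusted p = 0.00166) and MYBBP1A (-0.49 ± 0.11, adjusted p = 0.00221), all nucleolar proteins, also fell, and for MYBBP1A Helicon4neg exceeded vehicle by 0.39 (adjusted p = 0.0165 in limma). No member of the list passed with title code blocked, where the median was -0.33, and 9 fell without the SH7081 libraries. Of 18 MYC family and co-amplified genes 5 fell and none rose, and none passed with title code blocked. MYCN had 15.1 to 22.2 CPM (median 18.2) in Helicon4 tumors and 27.6 to 31.5 CPM (median 30.0) in Helicon4neg tumors (-0.67 ± 0.11, adjusted p = 2.97e-05). PVT1, the noncoding neighbour of MYC, fell relative to Helicon4neg (-0.45 ± 0.10, adjusted p = 0.00173), but Helicon4neg was above vehicle by 0.68 (adjusted p = 5.11e-05) and Helicon4 differed from vehicle by 0.23 (adjusted p = 0.127). CASC11, another noncoding neighbour, showed the same order (-0.25 ± 0.08, adjusted p = 0.0326, with 0.51 for Helicon4neg against vehicle). CASC11 did not pass without each of 8 single libraries (-0.25 to -0.21, adjusted p = 0.0508 to 0.0927).

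Replication, mitosis and cyclin lists held shares of called genes below the 15.1% of all tested genes. Falls alone were above the 7.31% of all tested genes for replication (11.6%) and cyclins (13.6%), and no mitosis gene fell. Rises were below the 7.78% of all tested genes, at 2.33% for replication, 4.76% for mitosis and 0% for cyclins. Of 43 DNA replication genes 5 fell and 1 rose, with a median of -0.07. Leaving out single libraries gave between 0 and 5 falls, and no member fell without the SH7081 libraries. The falls included MCM3, a helicase subunit (-0.23 ± 0.07, adjusted p = 0.0184), and LIG1, a DNA ligase (-0.22 ± 0.07, adjusted p = 0.0406), and the rise was POLA1 (0.38 ± 0.10, adjusted p = 0.0121), which was lower in Helicon4neg than in vehicle, with a log2 difference of -0.43 (adjusted p = 0.00489 in limma). Of 42 mitosis genes 2 rose, KIF20A (0.45 ± 0.11, adjusted p = 0.0059) and HMMR (0.61 ± 0.19, adjusted p = 0.0283, with -0.56 for Helicon4neg against vehicle, adjusted p = 0.0454), and none fell. Of 22 cyclins, CDKs and regulators 3 fell, or 1 without Helicon4 library 1. CDKN1A, the inhibitor p21, fell at a level of 1.08 to 1.61 CPM with Helicon4 against 2.06 to 4.77 CPM with Helicon4neg (-0.82 ± 0.14, adjusted p = 8.25e-05), and CCND2, cyclin D2, fell (-0.49 ± 0.15, adjusted p = 0.0212). Among 29 histone genes 6 rose and 2 fell, led by HIST1H2BD (0.65 ± 0.09, adjusted p = 5.16e-06, with -0.28 for Helicon4neg against vehicle, adjusted p = 0.036) and HIST1H2AC (0.97 ± 0.15, adjusted p = 2.76e-05), whose near-identical copies make the assignment of reads uncertain. MCM3 did not pass without Helicon4 library 3 (-0.20, adjusted p = 0.0616). LIG1 did not pass without each of 10 single libraries (-0.23 to -0.20, adjusted p = 0.0506 to 0.0928). HMMR did not pass without Helicon4 library 1 or 6 (0.51 to 0.58, adjusted p = 0.0627 to 0.092). CCND2 did not pass without Helicon4 library 1, 4 or 6 (-0.45 to -0.42, adjusted p = 0.0519 to 0.07). No gene of the replication, mitosis, cyclin and histone lists passed in limma with title code blocked.

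Apoptosis and p53 lists held calls in both directions, 3 of 16 genes (18.8%) and 5 of 19 (26.3%), against 15.1% of all tested genes. Of 16 BCL2 family genes 2 rose, BMF and BCL2L11, which encodes the BH3-only protein BIM (0.30 ± 0.09, adjusted p = 0.0156), and 1 fell, HRK (-0.40 ± 0.12, adjusted p = 0.0215). Of 19 p53 targets 2 rose and 3 fell, with 1 to 3 rises and 2 to 4 falls when single libraries were left out. BTG2, an antiproliferative gene, had 56.3 to 80.4 CPM (median 72.3) in Helicon4 tumors and 31.5 to 40.1 CPM (median 36.1) in Helicon4neg tumors (0.97 ± 0.10, adjusted p = 1.69e-08), and AEN fell (-0.50 ± 0.12, adjusted p = 0.00345). Of 12 telomerase and shelterin genes, DKC1 fell (-0.35 ± 0.08, adjusted p = 0.00432) and TERF1 rose (0.31 ± 0.11, adjusted p = 0.0487), while TERT, the catalytic subunit, differed by -0.24, adjusted p = 0.221. HRK did not pass without Helicon4 library 1, 4 or 6 (-0.38 to -0.36, adjusted p = 0.0516 to 0.0579). TERF1 did not pass without each of 9 single libraries (0.23 to 0.33, adjusted p = 0.0569 to 0.159). Blocking title code left 1 BCL2 family gene and 1 p53 target that rose and no fall in the 3 lists.

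Among other signalling pathways, BAMBI, a decoy receptor of BMP signals and a Wnt target, had 21.9 to 32.7 CPM (median 27.5) in Helicon4 tumors and 44.6 to 62.7 CPM (median 52.5) in Helicon4neg tumors (-0.93 ± 0.11, adjusted p = 1.05e-07). BMP4 fell (-0.59 ± 0.12, adjusted p = 0.000809) and INHBB rose (0.55 ± 0.12, adjusted p = 0.00194), and 4 of 23 BMP and TGF-β genes fell and 1 rose in all, with 2 to 6 falls when single libraries were left out. Of 16 Notch genes 4 fell, HEY1 most (-0.81 ± 0.11, adjusted p = 1.56e-06) with HES1 (-0.58 ± 0.19, adjusted p = 0.0358) and JAG2 (-0.47 ± 0.13, adjusted p = 0.0144), and HEYL rose (0.35 ± 0.11, adjusted p = 0.0285), with 1 to 3 falls when single libraries were left out. Of 16 Hedgehog and FGF genes 4 fell and 2 rose, or 5 and 4 without Helicon4neg library 2. GLI2, the activator of Hedgehog targets, had 10.7 to 15.2 CPM (median 13.0) in Helicon4 tumors and 4.26 to 7.55 CPM (median 5.93) in Helicon4neg tumors (1.04 ± 0.13, adjusted p = 5.85e-07), while FGFR1 fell (-0.37 ± 0.08, adjusted p = 0.00242). Of 31 homeobox and gut regulators 7 rose and 6 fell, and HOXB8 fell (-1.13 ± 0.14, adjusted p = 8.34e-07) while HOXB13 (0.53 ± 0.09, adjusted p = 4.87e-05) and TBX2 (0.85 ± 0.14, adjusted p = 3.71e-05) rose. HES1 did not pass without each of 9 single libraries (-0.59 to -0.49, adjusted p = 0.0508 to 0.0827). JAG2 did not pass without Helicon4 library 6 (-0.39, adjusted p = 0.0549). HEYL did not pass without Helicon4 library 1, 2 or 4 or Helicon4neg library 8 (0.30 to 0.34, adjusted p = 0.0566 to 0.0772). In the title code fit 1 BMP and TGF-β gene rose and 1 fell, 1 Hedgehog and FGF gene rose and 2 fell, 2 homeobox and gut regulators rose, and no Notch gene passed.

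Sterol, respiratory and glycolysis lists held shares of called genes below the 15.1% of all tested genes. Of 32 sterol and fatty acid synthesis genes 1 rose, TM7SF2 (0.53 ± 0.15, adjusted p = 0.0156), and 1 fell, DHCR7 (-0.41 ± 0.11, adjusted p = 0.0117). Of 38 subunits of oxidative phosphorylation 2 fell, NDUFV2 (-0.55 ± 0.16, adjusted p = 0.0165) and NDUFA10 (-0.18 ± 0.06, adjusted p = 0.0266). NDUFV2 was low, at 1.33 to 2.08 CPM with Helicon4 and 1.76 to 4.29 CPM with Helicon4neg, and the groups overlapped. None of 13 mitochondrial genome transcripts passed in limma, edgeR or DESeq2, with a median of 0.18 and 1 at an unadjusted p under 0.05. Of 32 hypoxia and glycolysis genes 2 rose, NDRG1 (0.70 ± 0.16, adjusted p = 0.00276) and EGLN3 (0.34 ± 0.11, adjusted p = 0.0317). Of 12 NF-κB and chemokine genes 3 rose, TRAF1 (0.49 ± 0.10, adjusted p = 0.000401) foremost, and 1 fell, TNFAIP3 (-0.53 ± 0.16, adjusted p = 0.0267), or 4 without Helicon4neg library 2. Of 10 liver-type plasma proteins 2 rose and 2 fell. NDUFA10 did not pass without Helicon4 library 1, 3 or 6 (-0.18 to -0.17, adjusted p = 0.0501 to 0.0627). EGLN3 did not pass without each of 7 single libraries (0.31 to 0.34, adjusted p = 0.0504 to 0.0799). TNFAIP3 did not pass without each of 5 single libraries (-0.51 to -0.48, adjusted p = 0.0509 to 0.0694). Blocking title code left 1 liver-type gene that fell and no call in the sterol, respiratory, mitochondrial, glycolysis and NF-κB lists.

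**Figure D5:**
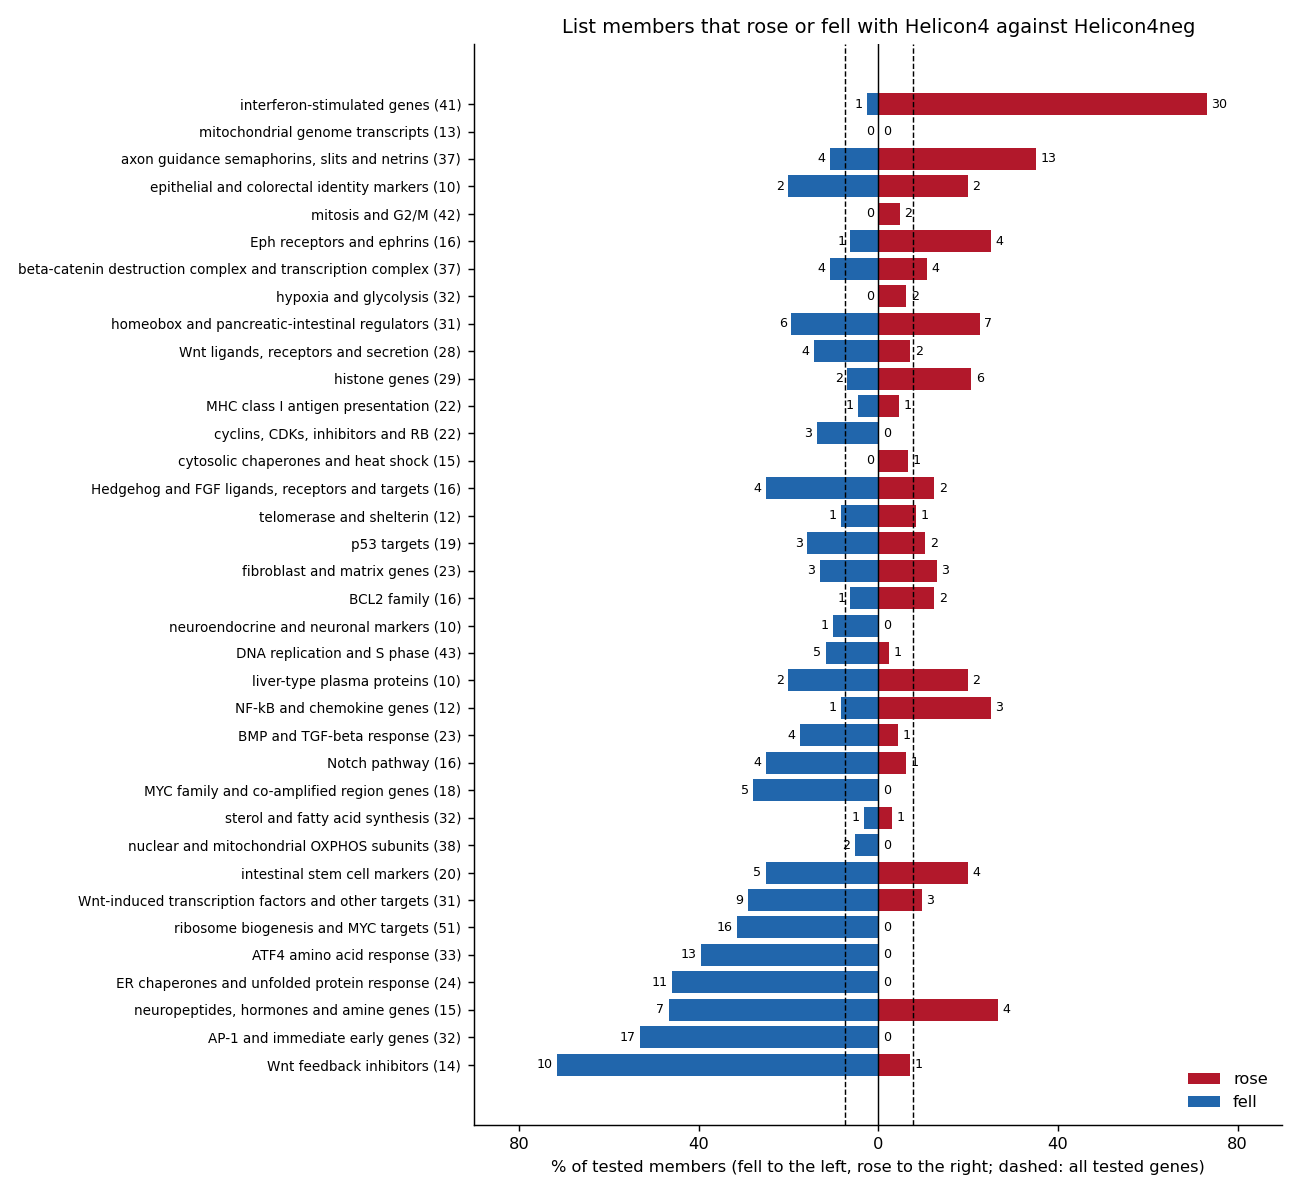
Share of tested members that rose (red, to the right) or fell (blue, to the left) for each list with at least 10 tested members, in order of median log2 fold change, with the number of genes beside each bar and the number tested in parentheses. Dashed lines mark the shares over all tested genes, 7.78% and 7.31%. Interferon-stimulated genes (30 of 41 rose) and Wnt feedback inhibitors (10 of 14 fell) stand farthest from them.

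Markers of cell identity and of host tissue were compared as library measures with exact permutation tests, two-sided and adjusted over 9 measures. The epithelial and colorectal list averaged 4.92 ± 0.07 in Helicon4 libraries and 4.79 ± 0.07 in Helicon4neg libraries on the log2 scale (SD, n = 6 and 8, exact p = 0.00400, adjusted 0.021). Of its 20 genes 10 were tested, KRT8, KRT18, KRT20 and EPCAM among them, and the others were not analysed here. Of the 10, 2 rose and 2 fell, 20% each, against 7.78% and 7.31% of all tested genes. Their changes ran from -0.63 for CDX2 to 1.31 for GPA33, with a median of 0.14. A mean over 10 genes is moved by a single large change such as that of GPA33, so it does not show a rise of the list as a whole. EPCAM was at a median of 28 CPM with Helicon4 and 26.9 CPM with Helicon4neg. The summed level of the list ran the other way, 2742 to 3432 CPM in Helicon4 libraries and 3716 to 5158 CPM in Helicon4neg libraries, since CDX2 makes up most of the sum.

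Leukocyte markers averaged 2.53 ± 0.06 with Helicon4 and 2.7 ± 0.10 with Helicon4neg (SD, n = 6 and 8, exact p = 0.00466, adjusted 0.021). Of 23 listed genes 9 were tested, none of them under 1 CPM in all 14 libraries, and they summed to 60.7 to 67.7 CPM with Helicon4, 66.5 to 82.5 CPM with Helicon4neg and 61.6 to 77.6 CPM with vehicle. CTSS (-0.83 ± 0.14, adjusted p = 9.97e-05) and CD4 (-0.40 ± 0.12, adjusted p = 0.0175, with 0.40 for Helicon4neg against vehicle, adjusted p = 0.02) fell, whereas PTPRC, the pan-leukocyte marker, differed by 0.07, adjusted p = 0.877. CD4 did not pass without Helicon4 library 6 (-0.35, adjusted p = 0.0607). PTPRC changed sign without Helicon4neg library 2 (-0.19, adjusted p = 0.395). Fibroblast and matrix genes (23 of 33 tested) averaged 4.01 ± 0.08 in Helicon4 libraries and 4.07 ± 0.13 in Helicon4neg libraries (SD, n = 6 and 8). Endothelial markers (7 of 18 tested) averaged 2.95 ± 0.09 in Helicon4 libraries and 3.02 ± 0.13 in Helicon4neg libraries, and both lists had an adjusted p of 0.526 in the exact permutation test. Of the 23 fibroblast and matrix genes 3 rose and 3 fell, and of the 7 endothelial markers 2 rose and 2 fell. In these lists, MMP2 (-1.04 ± 0.11, adjusted p = 4.19e-08), BGN (-1.35 ± 0.17, adjusted p = 4.51e-07) and CLDN5 (-1.52 ± 0.25, adjusted p = 3.99e-05) fell, and COL1A1 (0.97 ± 0.13, adjusted p = 2.29e-06), FN1 (0.95 ± 0.18, adjusted p = 0.000419) and ANGPT2 (1.07 ± 0.14, adjusted p = 8.84e-07) rose. In the title code fit 1 fibroblast or matrix gene rose and 2 fell, and no leukocyte or endothelial marker passed. Depth, mitochondrial share, ribosomal protein share, the share of the 50 highest genes and the slope on gene length did not pass, with adjusted p of 0.258 to 0.836. Of 13 muscle, fat and skin markers 1 was tested, KRT10, which did not pass. The labels name no mouse genome, and the part of host reads in these values was not tested.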

How the data were processed

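RNA-seq values of 29 libraries were analysed from 1 deposited table of 13492 genes. Per the submitters' processing notes, reads were processed with Trimmomatic 0.39, STAR 2.7.7a, featureCounts of Subread 2.4.2 and edgeR 4.0.2 on GRCh38. The authors deposited a signal per gene, CPM after their own scaling between libraries, whose columns sum to 0.92 to 1.26 M. Each value was a whole multiple of 1 read (tolerance 0.05) in 100% of cases, and the recovered reads gave depths of 26.8 to 61.6 M. The labels name kits in conflict, so strandedness is not stated here, and name no mouse genome.

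The 13373 genes that reached 1 CPM in 5 or more libraries entered limma 3.58.1 (R 4.3.3, trend and robust fitting), run on log2(CPM + 1) in 1 fit of all 4 groups, without a block. P-values were Benjamini-Hochberg adjusted over all tested genes, with a threshold of 0.05. The fit was tested on simulated data of 13373 genes. It recovered 50.7% of 67 genes changed 1.5-fold, 86.6% of 67 changed 2-fold and 98.5% of 66 changed 4-fold. Among the unchanged genes it made 9 false calls. The simulation drew each gene independently around 1 mean for all libraries. It held no title code effect and no library like Helicon4neg library 2, so it cannot say how many calls in the real data are false. Per-library measures were set against each other by exact permutation in scipy 1.17.1. edgeR 4.0.16 and DESeq2 1.42.0 were run on recovered reads as alternatives added after the data had been seen. Fits without SH7081 or without the 2 libraries of lowest slope on gene length were also added then. So were fits with a length slope, host markers or a 2-group replicate block. Further alternatives covered the pseudocount, filters, TMM, fit options, blocks, weights and leaving out each library.

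Named genes were 18 core Wnt genes, the 15 largest rises and falls with at least 5 CPM, up to 4 members per list by adjusted p, and the 5 with the largest gap between groups. The genes and the 42 lists were chosen with earlier results of these data known, and the choice of members to print followed a look at their values. Lists share some members, such as CDKN1A in the cyclin and p53 lists, so their counts are not separate. Promoters come from RefSeq (GRCh38.p14), and AXIN2, NKD1 and NOTUM had no entry to use. Some genes are not reported here by name.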

Additional observations from a re-analysis of the deposited data

Results flagged for a closer look

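In 4 to 10 libraries of 1 group, a highest or lowest value was listed here when its gap to the nearest other library was large for the range of the group. Chance alone lists about 1 in 20 groups, and 52 of 314 group and measure pairs were listed. Helicon4neg library 2 accounts for 33 of the gene values. It was low for HMMR at 8.84 CPM (19.9 to 25.5 in the others), PLXNA2 at 0.842 CPM (1.44 to 1.66 in the others), PTPRC at 4.86 CPM (21.4 to 28.4 in the others), TLE4 at 5.33 CPM (11.3 to 16.3 in the others), CCND1 at 9.03 CPM (12.5 to 14.8 in the others) and WNT5A at 13.9 CPM (28.7 to 36.4 in the others). Other low values of this library were TNFAIP3 at 2.15 CPM (4.82 to 6.69 in the others), SOX4 at 104 CPM (169 to 206 in the others), BMP4 at 45.7 CPM (76.4 to 103 in the others), TNFRSF19 at 35 CPM (66.4 to 82.1 in the others) and LEF1 at 183 CPM (268 to 296 in the others). Other low values of this library were HDC at 314 CPM (556 to 755 in the others), LRIG1 at 21.4 CPM (30.5 to 35.5 in the others), TERF1 at 24.1 CPM (32.3 to 39.2 in the others), TCF7L2 at 18.5 CPM (35.2 to 35.9 in the others), WIF1 at 22.1 CPM (46.1 to 67.1 in the others) and EDIL3 at 3.27 CPM (11.2 to 17.8 in the others). Other low values of this library were TAP1 at 5.94 CPM (10.1 to 13.3 in the others), CTBP2 at 53 CPM (84.3 to 96.8 in the others), ZNRF3 at 63.1 CPM (105 to 139 in the others) and KREMEN1 at 275 CPM (472 to 562 in the others). It was high for WNT6 at 2.52 CPM (0.956 to 1.51 in the others), CCND2 at 631 CPM (340.5 to 473 in the others), HOXB8 at 6.31 CPM (2.55 to 4.27 in the others), NDUFA10 at 144 CPM (117 to 128 in the others) and DKC1 at 688 CPM (414 to 509 in the others). Other high values of this library were TM7SF2 at 25.7 CPM (11.7 to 17.4 in the others), HIST1H2BD at 3.41 CPM (1.98 to 2.58 in the others), DEFA5 at 163 CPM (42.0 to 86.2 in the others), PDIA3 at 436 CPM (252 to 335 in the others), AEN at 70.1 CPM (38.6 to 50.03 in the others) and ASCL2 at 138 CPM (35.7 to 59.6 in the others). Other high values of this library were CLDN5 at 44.6 CPM (9.98 to 18.2 in the others).

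Helicon4 library 1 was high for NDRG1 at 14.5 CPM (7.94 to 9.81 in the others), IFIT3 at 9.07 CPM (3.13 to 4.32 in the others), HERC6 at 25.7 CPM (14.9 to 16.9 in the others), NCAM1 at 1.54 CPM (0.756 to 1.02 in the others) and IFIT1 at 23.9 CPM (12.1 to 16.2 in the others). Helicon4 library 4 was high for SEMA5B at 2.7 CPM (1.05 to 1.62 in the others), SERPIND1 at 2.31 CPM (1.45 to 1.71 in the others), APCDD1 at 679 CPM (495 to 549.6 in the others), PDIA4 at 280.5 CPM (224 to 244 in the others) and BGN at 27.6 CPM (17.1 to 21 in the others). Helicon4 library 6 was high for HSP90AA1 at 2343 CPM (1558 to 1772 in the others). Helicon4neg library 3 was high for EFNB3 at 11.9 CPM (8.39 to 9.94 in the others). Helicon4neg library 4 was high for ZAP70 at 112 CPM (62.3 to 85.1 in the others). Helicon4neg library 6 was high for IFI44L at 0.562 CPM (0.0956 to 0.287 in the others). Helicon4neg library 8 was high for DUSP6 at 115 CPM (81.7 to 97.3 in the others). For slope on log2 gene length, Helicon4neg library 2 had -0.321, against -0.0452 to 0.0871 in the other libraries of its group. For share of the 50 highest genes, in percent, Helicon4 library 4 had 17.5, against 18.6 to 19.2 in the other libraries of its group. For ribosomal protein share, in percent, Helicon4neg library 2 had 19.1, against 10.2 to 12.2 in the other libraries of its group. For leukocyte markers, mean log2 level, Helicon4neg library 2 had 2.48, against 2.66 to 2.81 in the other libraries of its group. Whether depth, RNA quality or sample handling moved these values was not tested.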

How the results depend on the processing

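The 2018 calls became 838 with the replicate block in a fit of the 2 groups alone, 184 with title code blocked, 4921 with library weights, 3440 with a length slope covariate, 1247 without the SH7081 libraries of both groups and 577 with a minimum of 1.5-fold. Leaving out single libraries gave 1503 to 2299 calls. The replicate block in the fit of all groups gave 1605 calls, and replicate numbers were not taken to pair libraries, since 2 of 6 pair correlations were over 0.1 and 1 of 6 Helicon4 libraries correlated best with its own number. edgeR gave 2098 calls and DESeq2 2406.

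The 2 libraries of lowest slope on gene length were Helicon4neg library 2 (-0.321) and vehicle library 6 (-0.186), with vehicle library 4 next (-0.135). Without those 2, the median moved to -0.28 for other Wnt targets, 0.05 for neuroendocrine markers and -0.41 for C/EBP factors. With the length slope covariate it was 0.06 for neuroendocrine markers and -0.42 for C/EBP factors. With title code blocked, which rests on Helicon4 library 1 alone for Helicon4, the median was -0.07 for stem cell markers and -0.02 for epithelial identity. There it was 1.05 for interferon-stimulated genes, 0.15 for MHC class I, 0.13 for homeobox genes and -0.20 for leukocyte markers. In edgeR it was -0.76 for amine and peptide genes, -0.11 for p53 targets and -0.21 for Notch, and with the replicate block -0.11 for p53 targets. Leaving out single libraries gave -0.28 to -0.13 for other Wnt targets, -0.14 to 0.05 for neuroendocrine markers, -0.11 to 0.01 for p53 targets and -0.69 to -0.41 for C/EBP factors.

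Signs turned for genes that had not passed: TCF7 was 0.03 with host markers as a covariate, RNF43 0.06 with host markers and 0.01 without Helicon4neg library 4, TCF7L2 -0.02 with library weights, and EPCAM -0.04 with the title code. Leaving out single libraries gave -0.03 to 0.08 for LEF1, -0.19 to 0.14 for PTPRC and -0.11 to 0.01 for RNF43. LEF1 was -0.07 with library weights and -0.02 with the length slope. It was -0.03 without Helicon4neg library 2 or without the 2 libraries of lowest slope. PTPRC was -0.07 with the title code, -0.22 with library weights, -0.17 with the length slope and -0.04 in edgeR and DESeq2. It was -0.19 without Helicon4neg library 2 or without the 2 libraries of lowest slope. Of 137 genes in the text that passed, 117 passed with each single library left out and 53 with title code blocked. The cause of these shifts was not tested. Genes near or below 1 CPM rest on fewer reads, and the 1 added to CPM before the log2 understates their folds.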

Other observations

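Gene families grouped by symbol after the values had been seen gave further counts, against 7.78% of all tested genes that rose and 7.31% that fell. Of 429 zinc finger genes with ZNF symbols, 47 rose and 15 fell, at a median of 0.10. Of 26 potassium channel genes 6 rose and 3 fell. Of 13 keratins 4 fell, at a median of -0.43, and of 210 solute carriers 10 rose and 16 fell. Of 78 cytosolic ribosomal proteins 1 rose and 1 fell, at a median of -0.15.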
